A study of Rattus norvegicus with 6 samples.

Results

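The genes described are 10 of the NF-kB system in the rat brain after subarachnoid hemorrhage (SAH), taken by symbol from the count table. They are 4 subunits, Nfkb1, Nfkb2, Rela and Relb, and 6 genes grouped as inhibitors, Nfkbia, Nfkbib, Nfkbie, Nfkbiz, Bcl3 and Tnfaip3, out of 22396 genes in the table. Each symbol matched 1 row, and all 10 were among the 17096 genes tested. Tissue of the basal temporal lobe was sequenced, 1 library per rat, with 3 SAH + 6-gingerol rats and 3 SAH + PBS rats. All were adult male Sprague-Dawley rats given SAH with blood drawn from the femoral artery and injected into the cisterna magna. The SAH + 6-gingerol rats received 6-gingerol, a pungent phenol of ginger, at 10 mg/kg into the peritoneum 1 h after induction, the SAH + PBS rats received the saline vehicle, and tissue was taken at 24 h. No sham library was analysed here, so levels without hemorrhage are not given.

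NF-kB is a family of dimeric transcription factors. In a resting cell the dimers are held in the cytoplasm by IkB proteins. Signals from cytokine and Toll-like receptors activate the IKK complex, which phosphorylates IkB. IkB is then degraded and the dimers enter the nucleus. Several genes that NF-kB induces encode its own inhibitors, so that the signal limits itself. In the brain, microglia, astrocytes, endothelium and infiltrating leukocytes all use the pathway in inflammation. Transcript counts do not measure phosphorylation, IkB degradation or nuclear entry.

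The promoters of these genes were read first, because autoregulation acts through kB sites and the members can then be sorted by a feature that does not depend on the counts. RefSeq windows on the GRCr8 assembly, running from 250 bases before to 50 after each gene start, were at hand for 9 of the 10 members. They were searched on both strands for the kB decamer consensus, the only motif searched. The decamer was present in 7 of the 9 members' windows, Nfkb1, Nfkb2, Nfkbia, Nfkbie, Nfkbiz, Bcl3 and Tnfaip3, while 7.51% of all 33469 windows held it. Tnfaip3 held it at 3 positions, which 0.155% of all windows reached. Rela and Nfkbib held none. The 250 bases before the start are shown for the 5 members with a match there whose highest rat stood furthest above its group, and for Rela as a member without a match. Capitals mark the decamer, read 5′ to 3′ on the strand of the gene, and GRCr8 positions belong to these sequences alone.
Nfkb2, chr1:255108124-255108373, plus strand: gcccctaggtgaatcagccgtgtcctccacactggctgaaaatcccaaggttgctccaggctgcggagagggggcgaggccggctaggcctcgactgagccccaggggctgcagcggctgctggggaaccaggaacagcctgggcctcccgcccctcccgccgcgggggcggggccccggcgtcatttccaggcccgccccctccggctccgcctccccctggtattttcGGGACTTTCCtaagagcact
Nfkbia, chr6:78597073-78597322, minus strand: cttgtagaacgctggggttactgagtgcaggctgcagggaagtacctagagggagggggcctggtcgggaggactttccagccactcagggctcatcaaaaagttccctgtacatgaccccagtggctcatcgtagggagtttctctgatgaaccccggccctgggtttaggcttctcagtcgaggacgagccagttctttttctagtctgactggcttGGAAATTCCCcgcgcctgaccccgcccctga
Nfkbiz, chr11:58251471-58251720, plus strand: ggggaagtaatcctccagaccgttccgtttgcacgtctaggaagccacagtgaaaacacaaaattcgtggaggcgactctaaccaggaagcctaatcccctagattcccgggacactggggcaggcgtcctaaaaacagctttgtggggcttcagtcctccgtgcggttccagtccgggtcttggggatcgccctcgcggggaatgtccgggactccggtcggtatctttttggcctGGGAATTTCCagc
Bcl3, chr1:88613556-88613805, minus strand: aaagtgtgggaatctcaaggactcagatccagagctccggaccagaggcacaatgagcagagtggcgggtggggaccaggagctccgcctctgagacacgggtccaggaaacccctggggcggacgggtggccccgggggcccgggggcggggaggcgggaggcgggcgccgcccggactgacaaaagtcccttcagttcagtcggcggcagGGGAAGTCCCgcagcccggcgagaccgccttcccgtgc
Tnfaip3, chr1:15543980-15544229, minus strand: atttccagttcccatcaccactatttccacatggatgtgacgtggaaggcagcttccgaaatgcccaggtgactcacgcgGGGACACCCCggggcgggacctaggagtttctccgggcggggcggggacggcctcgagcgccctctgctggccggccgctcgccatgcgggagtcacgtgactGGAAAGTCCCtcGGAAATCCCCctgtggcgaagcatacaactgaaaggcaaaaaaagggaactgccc
Rela, chr1:212354086-212354335, plus strand: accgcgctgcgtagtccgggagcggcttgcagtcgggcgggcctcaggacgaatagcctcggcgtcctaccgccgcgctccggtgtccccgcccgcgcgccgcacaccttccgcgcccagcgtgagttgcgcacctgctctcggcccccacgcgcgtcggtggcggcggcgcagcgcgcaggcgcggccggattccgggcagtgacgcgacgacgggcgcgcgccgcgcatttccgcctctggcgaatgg

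In Nfkbiz and Nfkb2 the match began 13 and 20 bases before the start, in Nfkbia 31 and in Bcl3 38 bases before it. Nfkb2 held GGGACTTTCC, and Nfkb1, Nfkbia and Nfkbiz shared GGGAATTTCC, which in Nfkbia lies on the opposite strand. In Tnfaip3 the stretch 170 bases before the start matches on both strands, as that of Bcl3 does, and those 67 and 55 bases before it match on the opposite strand. The Nfkb1 match lies 3 bases past the start and is therefore outside the upstream stretch. These matches describe letters in a short window, and binding was not measured.

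**Figure D1:**
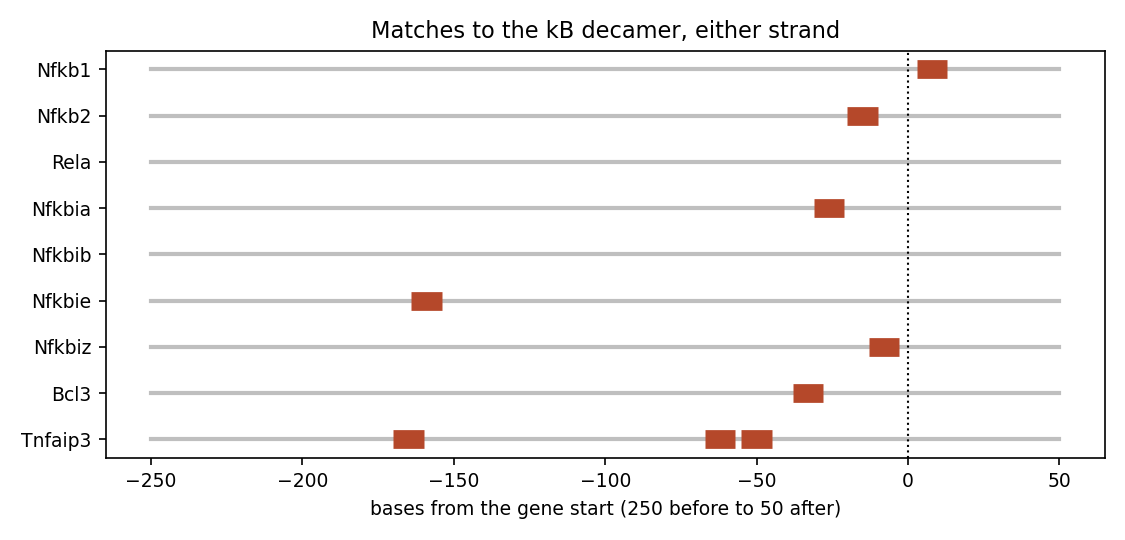
Positions of the kB decamer in the promoter windows of 9 members. The x axis gives bases from the gene start (dotted line), grey lines are the windows searched, and red blocks are matches on either strand, 3 in Tnfaip3 and none in Rela or Nfkbib.

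Libraries held 62762808 to 66761380 counts with 6-gingerol and 64053899 to 65606360 with PBS. No member was at 0 in any library, and the lowest member count was 28, for Bcl3. No gene model of the table overlapped a member. SAH + PBS replicate 2 stood apart over the whole table. Genes over 2-fold away from the average of their group mates made up 15.1% of that library, 5.12% and 7.18% of SAH + PBS replicates 1 and 3, and 1.29% to 1.69% of the SAH + 6-gingerol libraries. It was also the highest of the 6 libraries for all 10 members. Counts were scaled by library size and TMM factors (CPM) and compared with edgeR's quasi-likelihood test, with p-values adjusted over all genes tested. Log2 fold changes are SAH + 6-gingerol over SAH + PBS.

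All 10 members had a negative log2 fold change, and none passed an adjusted p under 0.05 in edgeR, where 0.0175% of all genes did. At an unadjusted p under 0.05, 5 members were lower with 6-gingerol (Nfkb2, Relb, Nfkbia, Nfkbiz and Bcl3), beside 8.71% of all genes. In 6 members (these 5 and Nfkb1) every SAH + 6-gingerol rat lay below every SAH + PBS rat, as in 13.4% of all genes. DESeq2, the tool of the study's methods, called 4 members lower at an adjusted p under 0.05. These were Nfkb2 (adjusted p = 0.0293), Nfkbia (0.0404), Nfkbiz (0.00242) and Bcl3 (0.000246), and DESeq2 called 3.0% of all genes lower. The count at an unadjusted p under 0.05 depended on single rats. Without SAH + PBS replicate 2 it was again 5, with Nfkb1 in place of Relb, beside 7.53% of all genes. It was 3 without SAH + 6-gingerol replicate 1 (4.46% of all genes), 2 without SAH + 6-gingerol replicate 2 (4.11%) or 3 (4.18%), 6 without SAH + PBS replicate 1 (9.04%) and 8 without SAH + PBS replicate 3 (14.9%), so the share of all genes moved the same way.

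**Figure D2:**
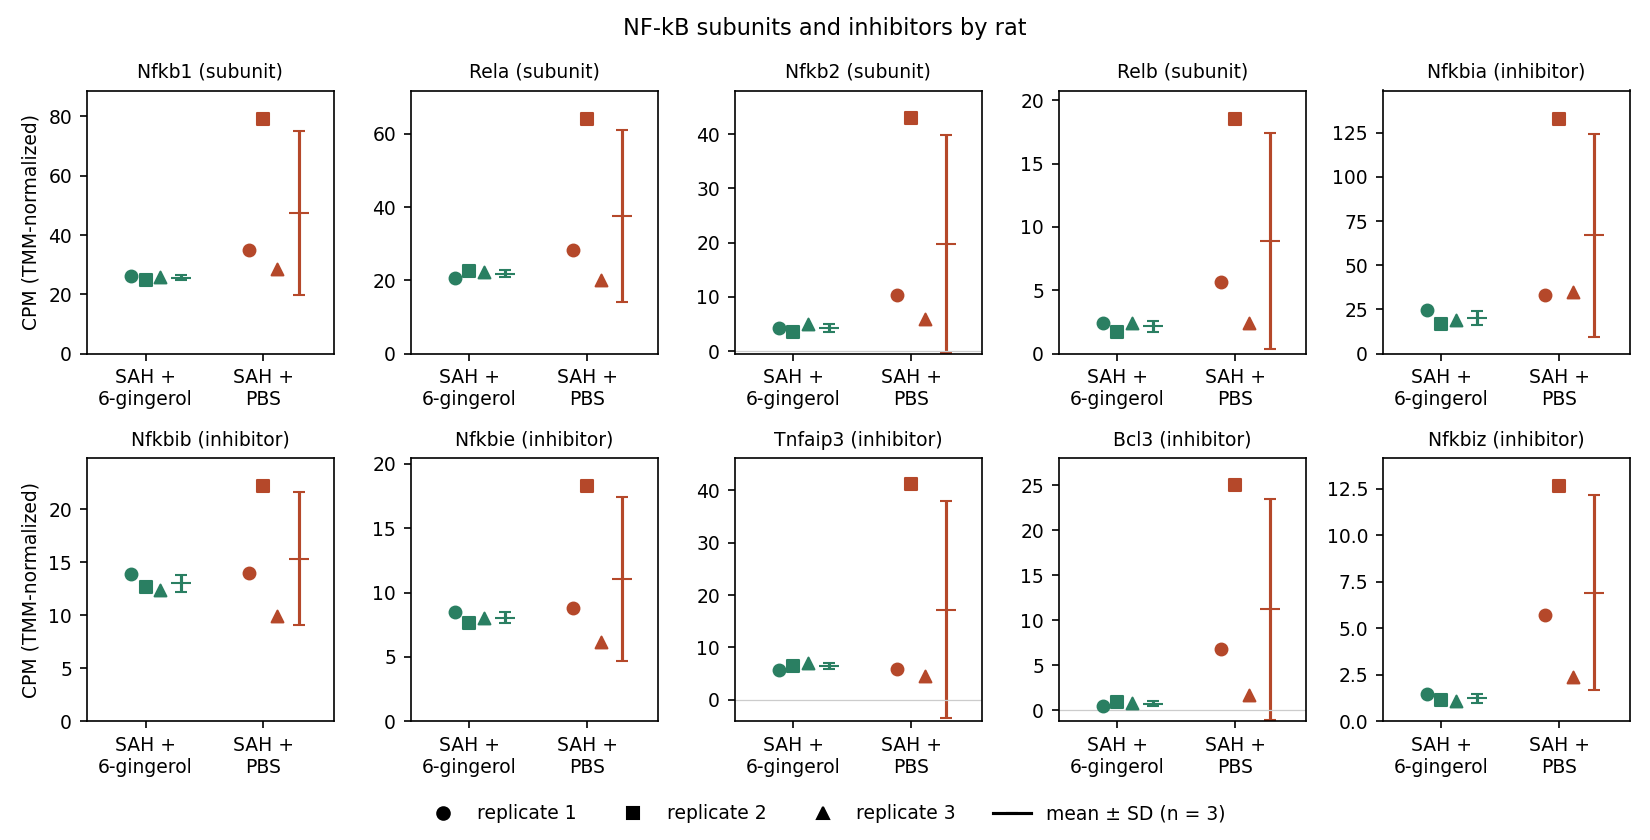
CPM of each member in each rat, with SAH + 6-gingerol on the left and SAH + PBS on the right of each panel. Symbols give the replicate, and bars give the mean and SD (n = 3). SAH + PBS replicate 2 (square) is the highest point in all 10 panels, and the SAH + 6-gingerol rats lie close together.

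Among the subunits the precursor genes and the transactivating subunits each split into a gene with a smaller and a gene with a larger difference. Nfkb1, which encodes the precursor of the subunit that pairs with Rela in the canonical dimer, lies on chromosome 2 of Rnor_6.0 (240773456 to 240866689, minus strand). Its levels were 26.3, 24.9 and 25.8 CPM in the SAH + 6-gingerol rats, against 34.9, 79.2 and 28.5 CPM in the SAH + PBS rats. The groups did not overlap, although SAH + PBS replicate 3 was only 1.11 times the SAH + 6-gingerol mean. edgeR gave a log2 fold change of -0.89 with a standard error (SE) of 0.38 and an adjusted p of 0.364, and the fold change was -0.31 without SAH + PBS replicate 2.
Rela, the main transactivating subunit of the canonical pathway (chromosome 1, 220992770 to 221003249, plus strand), had 20.6, 22.5 and 22.4 CPM with 6-gingerol, against 28.4, 64.1 and 20.2 CPM with PBS. Here SAH + PBS replicate 3 was the lowest of all 6 rats, so the groups overlapped. The fold change of Rela on the log2 scale was -0.78 (SE 0.41, edgeR adjusted p = 0.401), and -0.15 without SAH + PBS replicate 2.

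Nfkb2 and Relb form the dimer of the non-canonical pathway. Nfkb2 (chromosome 1, 266053002 to 266059256, plus strand) measured 4.36, 3.48 and 5.05 CPM with 6-gingerol, against 10.4, 42.9 and 5.97 CPM with PBS. The groups did not overlap, and SAH + PBS replicate 2 stood at 5.23 times the average of replicates 1 and 3. Its log2 fold change was -2.20 (SE 0.73, edgeR adjusted p = 0.347).
Relb (chromosome 1, 80517411 to 80544825, minus strand) had 2.42, 1.68 and 2.42 CPM with 6-gingerol, against 5.65, 18.5 and 2.44 CPM with PBS. SAH + PBS replicate 3 lay only just above the highest SAH + 6-gingerol rat, so the separation of the groups rests on a narrow gap there. For Relb edgeR gave -2.03 on the log2 scale (SE 0.72, adjusted p = 0.348). Without SAH + PBS replicate 2 it was -0.90 for Relb and -0.93 for Nfkb2. Both non-canonical genes thus kept a negative value in the remaining 5 rats (adjusted p = 0.352 and 0.218 in edgeR).

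The inhibitors ranged more widely. Nfkbia encodes IkB alpha, the classical inhibitor that NF-kB itself induces and that ends the response. It lies on chromosome 6 (76267228 to 76270457, minus strand) and reached 24.8, 16.7 and 19.1 CPM with 6-gingerol, against 33.01, 132.9 and 34.7 CPM with PBS. The groups did not overlap. Nfkbia was the only member in which SAH + PBS replicate 3 was above replicate 1, and these rats were 1.72 and 1.63 times the SAH + 6-gingerol mean. Its log2 fold change was -1.73 (SE 0.58, edgeR adjusted p = 0.347), and -0.74 without SAH + PBS replicate 2 (edgeR adjusted p = 0.145).

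Nfkbib and Nfkbie encode the other classical cytoplasmic inhibitors, IkB beta and IkB epsilon. Nfkbib (chromosome 1, 86941074 to 86948845, minus strand) had 13.9, 12.7 and 12.4 CPM with 6-gingerol, against 13.9, 22.2 and 9.91 CPM with PBS. Nfkbie (chromosome 9, 17828408 to 17835240, minus strand) had 8.50, 7.64 and 8.02 CPM with 6-gingerol, against 8.77, 18.3 and 6.14 CPM with PBS. In both genes SAH + PBS replicate 3 was the lowest of all rats and replicate 2 the highest, so the SAH + 6-gingerol rats lay inside the range of the SAH + PBS rats. The log2 fold change of Nfkbib was -0.24, with a 95% interval from -0.95 to 0.47 (adjusted p = 0.683 from edgeR). That of Nfkbie was -0.46, with an interval from -1.41 to 0.50 (adjusted p = 0.56 from edgeR). Without SAH + PBS replicate 2 they were 0.13 and 0.11, so the sign turned in both.

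Nfkbiz and Bcl3 encode atypical IkB proteins of the nucleus, which bind NF-kB dimers on DNA and can activate as well as repress genes. Nfkbiz (chromosome 11, 47243342 to 47271487, plus strand) was at 1.48, 1.118 and 1.07 CPM with 6-gingerol, against 5.71, 12.6 and 2.39 CPM with PBS. Bcl3 (chromosome 1, 80730499 to 80744831, minus strand, 185673 bases from Relb) had 0.445, 0.947 and 0.752 CPM with 6-gingerol, against 6.81, 25.0 and 1.71 CPM with PBS. The groups did not overlap in either gene, and each SAH + PBS rat was at least 1.96 times the SAH + 6-gingerol mean for Nfkbiz and at least 2.40 times for Bcl3. On the log2 scale edgeR gave -2.50 for Nfkbiz (SE 0.60) and -3.96 for Bcl3 (SE 0.99), each with an adjusted p of 0.338. Without SAH + PBS replicate 2 the values were -1.73 and -2.57 (adjusted p = 0.145 and 0.149 in edgeR), still the most negative of the 10 members.

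Tnfaip3 encodes a ubiquitin-editing enzyme that shuts off signaling upstream of IKK, and, like Nfkbia, it is a well-known NF-kB target. It lies on chromosome 1 (14402913 to 14412807, minus strand). Tnfaip3 was at 5.77, 6.43 and 7.02 CPM with 6-gingerol, against 5.88, 41.2 and 4.59 CPM with PBS. The difference between the means rested on 1 rat, since SAH + PBS replicate 2 stood at 7.87 times the average of replicates 1 and 3, the highest such ratio among the 10 members. Replicates 1 and 3 lay at 0.919 and 0.717 times the SAH + 6-gingerol mean. With all rats its log2 fold change was -1.43 (SE 0.84, edgeR adjusted p = 0.429), and without SAH + PBS replicate 2 it was 0.29 (edgeR adjusted p = 0.54).

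**Figure D3:**
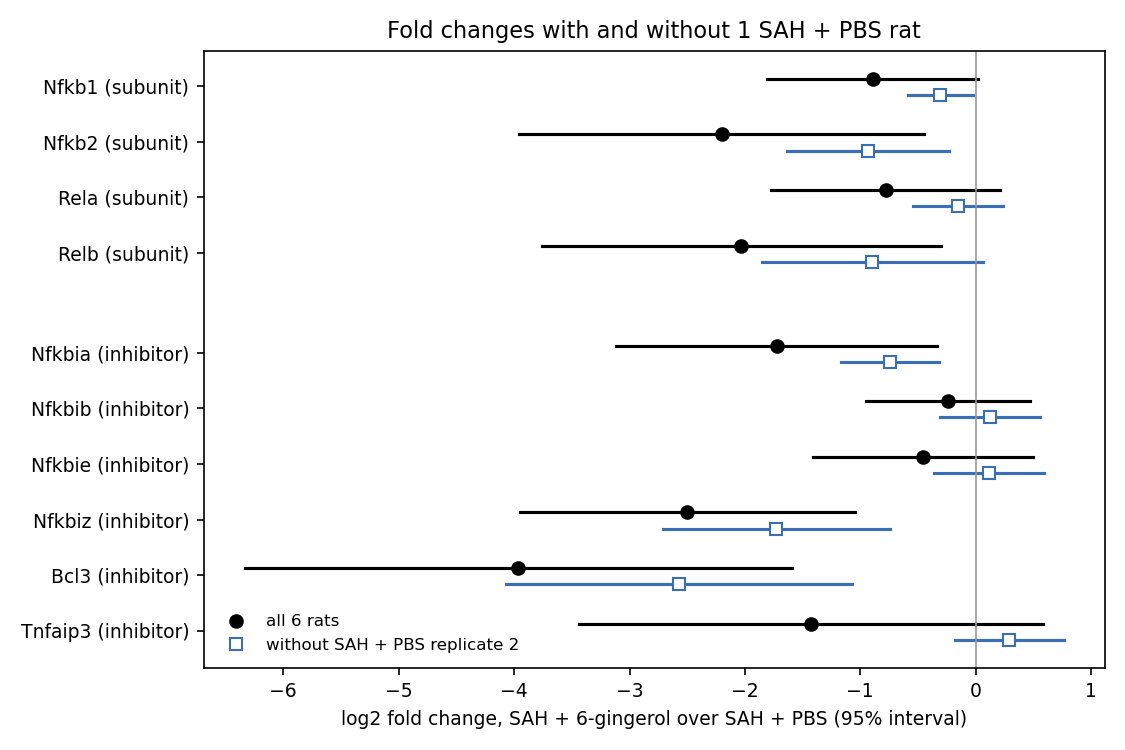
Log2 fold change of each member, SAH + 6-gingerol over SAH + PBS, with its 95% interval from edgeR. Filled circles use all 6 rats and open squares leave out SAH + PBS replicate 2, where Nfkbib, Nfkbie and Tnfaip3 lie above 0 and Nfkbiz and Bcl3 stay below -1.

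Subunits and inhibitors were then compared as groups. The inhibitor group includes Nfkbiz and Bcl3, its most negative genes, which can also activate genes, beside Nfkbia (-1.73) and Tnfaip3 (-1.43). Values of this group therefore do not measure inhibition alone, and the comparison does not measure a balance of the system. The median log2 fold change was -1.46 over the 4 subunits and -1.58 over the 6 inhibitors, beside -0.03 over all genes tested. Without SAH + PBS replicate 2 the medians were -0.60 and -0.32. For each rat the mean log2 CPM of the inhibitors minus that of the subunits was taken. This difference was -0.88, -0.68 and -0.96 with 6-gingerol and -0.66, -0.59 and -0.71 with PBS. The ranges overlapped through SAH + 6-gingerol replicate 2. Relative to the SAH + 6-gingerol mean, the subunits lay at 0.88, 2.41 and 0.18 and the inhibitors at 1.07, 2.66 and 0.31 on the log2 scale in SAH + PBS replicates 1, 2 and 3. Single genes differed more within each class than the class medians did. Rela and Nfkb1 had -0.78 and -0.89 against -2.03 and -2.20 for Relb and Nfkb2, and Nfkbib and Nfkbie had -0.24 and -0.46 against -2.50 and -3.96 for Nfkbiz and Bcl3. Set beside the promoters, the 7 members with a kB decamer ran from -0.46 (Nfkbie) to -3.96 (Bcl3), and the 2 without one were at -0.24 (Nfkbib) and -0.78 (Rela). The ranges overlapped, and Tnfaip3, with the most matches, was the member whose value depended most plainly on 1 rat.

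**Figure D4:**
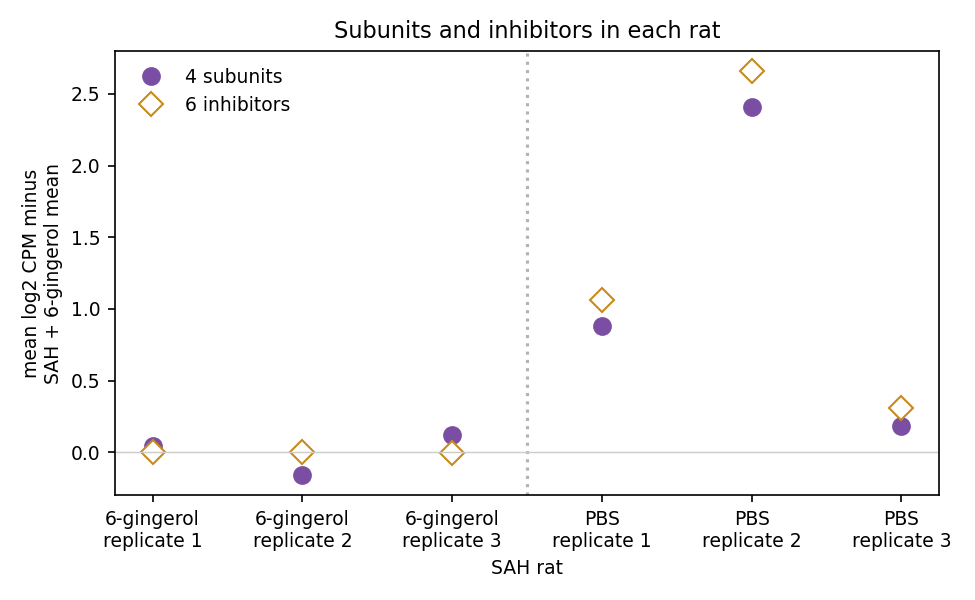
Mean log2 CPM of the 4 subunits (circles) and the 6 inhibitors (diamonds) in each rat, as the difference from the SAH + 6-gingerol mean. SAH + PBS replicate 2 lies at 2.41 and 2.66, replicate 1 at 0.88 and 1.07, and replicate 3 at 0.18 and 0.31.

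The spread differed between the groups as well. Over the 10 members the coefficient of variation between rats ran from 2.86% (Nfkb1) to 35.4% (Bcl3) in the SAH + 6-gingerol group and from 40.8% (Nfkbib) to 120.6% (Tnfaip3) in the SAH + PBS group. The latter values include SAH + PBS replicate 2, the highest rat for every member. The coefficient was not taken without that rat or over all genes. Members varied together over the 6 libraries, with Pearson's r of log2 CPM between 0.70 and 0.99 over the 45 pairs and a median of 0.92. These pairs share the same libraries, and SAH + PBS replicate 2 is the highest point of every one. Over the 5 other libraries r ran from -0.80 to 0.99, with a median of 0.62.

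Levels of different genes were compared as FPKM, which divides by gene length. In the SAH + 6-gingerol rats Nfkbia had the highest level, 12.4 ± 2.53 FPKM (SD, n = 3). It was followed by Nfkbib (8.92 ± 0.576), Rela (8.58 ± 0.42), Nfkb1 (6.36 ± 0.166), Nfkbie (4.82 ± 0.251) and Tnfaip3 (2.51 ± 0.237). Lower still were Nfkb2 (1.34 ± 0.238), Relb (1.07 ± 0.206), Bcl3 (0.364 ± 0.13) and Nfkbiz (0.289 ± 0.0532). Neighbours in this order overlapped between rats for Nfkbib and Rela, Nfkb2 and Relb, and Bcl3 and Nfkbiz, and the other neighbours did not. In the SAH + PBS rats the order was Nfkbia, Rela, Nfkb1, Nfkbib, Tnfaip3, Nfkbie, Nfkb2, Bcl3, Relb and Nfkbiz, and all neighbours overlapped. Nfkbia was at 45.2 ± 39.9 FPKM there and Nfkbiz at 1.80 ± 1.41 FPKM (SD, n = 3).

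Neuronal markers were abundant in all libraries, and marker sums of several other cell types differed between rats, not always in the order of the members. Macrophage and monocyte markers, of which 7 of 8 were in the table, summed to 80.1 to 90.9 CPM in the SAH + 6-gingerol rats and to 72.7, 310.3 and 116.2 CPM in SAH + PBS replicates 1, 2 and 3. The 10 neutrophil markers summed to 3.72 to 5.06 CPM with 6-gingerol and to 6.12, 57.1 and 9.50 CPM with PBS. Cxcr2 and Retnlg of that list were at 0 in all SAH + 6-gingerol rats, and Retnlg also in SAH + PBS replicate 3. Ngp of the same list went the other way, with 0, 20 and 12 counts with 6-gingerol, against 0, 9 and 0 counts with PBS. Endothelial markers, 5 of 6 in the table, summed to 173 to 199 CPM with 6-gingerol and to 217, 471 and 234 CPM with PBS, and Cldn5 was listed at 0 in every library but SAH + PBS replicate 2. The 7 microglial markers summed to 313 to 323 CPM with 6-gingerol and 309 to 331 CPM with PBS, and the 5 astrocyte markers to 2028 to 2542 CPM with 6-gingerol and 3761 to 5821 CPM with PBS. The astrocyte sum differed through Gfap alone, which averaged 431 CPM with 6-gingerol and 2904 CPM with PBS, while the log2 fold changes of the other 4 were positive (0.05 to 1.03). The 6 neuronal markers, among them Snap25 and Syt1 of the synapse, summed to 7378 to 7864 CPM with 6-gingerol and to 5282, 3039 and 6054 CPM with PBS, and the 6 of choroid plexus to 12.9 to 16.2 CPM with 6-gingerol and to 1152, 36.9 and 341 CPM with PBS. The macrophage and monocyte sum of SAH + PBS replicate 1 was below those of all SAH + 6-gingerol rats. In SAH + PBS replicate 2 Lyz2 alone had 242.7 CPM of that sum. The choroid plexus sum was highest in SAH + PBS replicate 1, where Ttr alone had 1047.9 CPM, whereas the members were highest in replicate 2. The part of these markers in the members' values was not tested. In bulk tissue, fewer cells of a type and less RNA per cell cannot be told apart.

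The rest of the pathway was followed through lists of other genes, with the members left out. The table held 106 such genes, of which 95 were tested, and 82 of these had a negative log2 fold change, beside 53.1% of all genes. None passed an adjusted p under 0.05 in edgeR, and 38 were lower at an unadjusted p under 0.05, beside 8.71% of all genes. DESeq2 called 15 of them lower at an adjusted p under 0.05, beside 3.0% of all genes, and 13 of the 15 were targets. Rel, the subunit that is not among the 10, had 1.43, 1.305 and 1.62 CPM with 6-gingerol, against 2.47, 7.65 and 1.27 CPM with PBS. Its groups overlapped, as those of Relb nearly did (log2 fold change -1.39, adjusted p = 0.377 from edgeR, and -0.37 without SAH + PBS replicate 2). The nuclear IkB protein gene Nfkbid also overlapped, with a log2 fold change of -1.26 (adjusted p = 0.376 from edgeR), and -0.65 without that rat.

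Upstream of NF-kB the log2 fold changes of all 10 receptor genes were negative (median -0.93), and 5 were lower at an unadjusted p under 0.05, beside 8.71% of all genes. The median was -0.39 and 9 of 10 were negative without SAH + PBS replicate 2. The TNF receptor Tnfrsf1a had 13.3, 11.8 and 11.01 CPM with 6-gingerol, against 34.9, 94.3 and 21.8 CPM with PBS, without overlap (log2 fold change -2.07, adjusted p = 0.34 from edgeR, and -1.24 without that rat). The others of smallest p were Cd40 (-1.57), which signals to the non-canonical pathway, Tnfrsf11a (-0.52) and Tnfrsf1b (-1.49). All 4 tested ligand genes were negative, from -0.66 (Ltb) and -0.72 (Il1a) to -2.38 (Tnf) and -3.81 (Il1b), at levels under 1 CPM in all rats but SAH + PBS replicate 2. Without that rat they were -0.13 (Ltb), 0.07 (Il1a), -0.71 (Tnf) and -0.87 (Il1b). Of 17 adaptors and ubiquitin ligases 16 were negative (median -0.47). Those of smallest p were Birc3, a ubiquitin ligase and NF-kB target, at -3.76, Card9 at -0.56, Myd88, the adaptor of Toll-like and interleukin receptors, at -1.35 and Malt1 at -1.19. Of 17 genes of the IKK complex, upstream kinases and their partner proteins 13 were negative (median -0.36). Those of smallest p were Chuk, the IKK alpha subunit, at -0.57, Ripk2 at -0.81, Ripk1 at -1.01 and Map3k8 at -1.28. The medians of these lists were -0.11 and -0.12 without SAH + PBS replicate 2, and Birc3 was at -2.04. Genes of IkB degradation were near 0. The ubiquitin ligase components Cul1, Skp1 and Btrc had 0.23, 0.25 and 0.17, Rbx1 had -0.11, and the median of the 5 was 0.17.

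Of 14 tested genes for other negative regulators 10 were negative, with a median of -0.13, and those of smallest p were Trafd1 (-0.34), Tnip2 (-1.45), Usp18 (-1.05) and Zc3h12a (-1.40). Without SAH + PBS replicate 2 the median was -0.016 and 7 of 14 were negative. These genes were then at -0.39 (Trafd1), -0.71 (Tnip2), -1.23 (Usp18) and -0.42 (Zc3h12a). Cyld (0.58) and Nkiras1 (0.72) were higher with 6-gingerol, without overlap between the groups of all rats. The target genes had the most negative values. All 25 tested were negative, with a median of -2.61, and 19 were lower at an unadjusted p under 0.05, beside 8.71% of all genes. In 15 the groups did not overlap, beside 13.4% of all genes. Ccl20 is in these counts, but it had no counts with 6-gingerol and passed the filter only through the SAH + PBS rats. Its sign was thus fixed in advance, here and among the negative pathway genes given above. Others, such as Sele (0.127, 0.373 and 0.067 CPM with 6-gingerol), Il6, Cxcl1 and Ccl3, did not reach the filter's minimum count in every SAH + 6-gingerol rat. They too passed only with the help of SAH + PBS rats. Their negative signs, and the fold change of Sele below, were thus partly set by the filter, and these genes are in the counts above as well. Lcn2, an iron-binding protein of acute inflammation, had 1.05, 0.186 and 0.234 CPM with 6-gingerol, against 13.8, 73.5 and 12.7 CPM with PBS (log2 fold change -6.08, adjusted p = 0.334 from edgeR). Cd44, a hyaluronan receptor, had -3.59, Sele, an endothelial adhesion molecule for leukocytes, -6.50 and Ptx3, a pattern recognition protein, -6.17 (adjusted p from 0.338 to 0.34 in edgeR). These 3 were at -2.20, -3.96 and -3.44 and Lcn2 at -4.75 without SAH + PBS replicate 2. The chemokine gene Ccl20 had no counts with 6-gingerol and was at least 462-fold lower there, taking 3 counts summed over that group as its upper limit. That bound rests on SAH + PBS replicate 2, at 21.4 CPM against 0.647 and 0.182 CPM in replicates 1 and 3, and it is at least 25.9-fold without that rat. Without SAH + PBS replicate 2 the median of the targets was -0.95 and 21 of 25 were negative, and that of all 95 pathway genes was -0.23, against -0.57 with all rats.

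**Figure D5:**
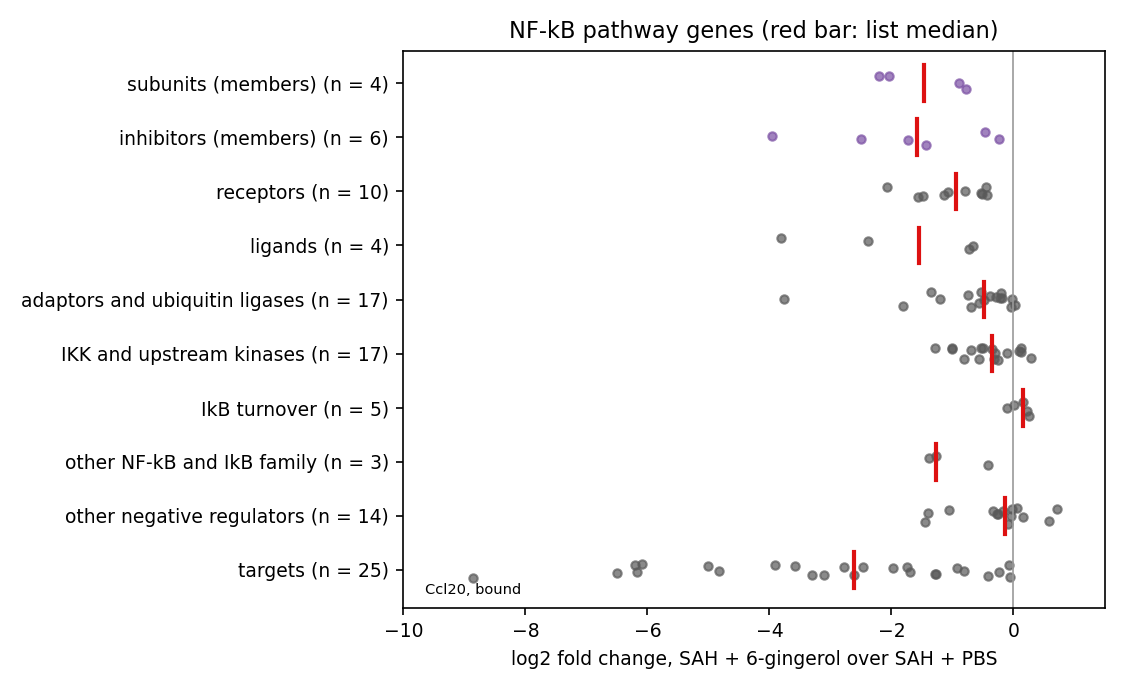
Log2 fold changes (SAH + 6-gingerol over SAH + PBS) of the members and of 8 lists of other pathway genes. Each point is a gene, red bars are list medians, and Ccl20 is drawn at its bound. Targets have the lowest median (-2.61) and genes of IkB turnover the highest (0.17).

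The genes whose pattern over the 6 libraries was most like that of the inhibitors were Nqo1, a quinone reductase, Xylb, a xylulokinase, Cct4, a chaperonin subunit, Hnrnpf, an RNA-binding protein, and Dtx1, a ubiquitin ligase of the Notch pathway. Pearson's r of their log2 CPM with the mean centred profile of the 6 inhibitors was 0.998 for each, over 6 libraries. Nqo1 had 15.8, 15.7 and 15.5 CPM with 6-gingerol, against 21.7, 39.0 and 16.8 CPM with PBS. Of 14789 genes compared, 1131 had an r over 0.95, so this pattern was common in these libraries.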

How the data were processed

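The authors deposited raw read counts and FPKM values for the same genes, with Ensembl identifiers, symbols and positions. The submitters' processing notes name limma 3.32.10, StringTie 1.3.3b, HISAT2 2.1.0 and the build Rnor_6.0 without roles, whereas STAR and DESeq2 stand in the methods of the paper. Which program counted reads, whether it used strand, and which annotation release it used is not given in the sources used here. Table columns called Control are the SAH + 6-gingerol libraries by their sample titles. The members, lists and named genes were chosen with earlier results of these data known.

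Counts were tested with edgeR 4.0.16 in R 4.3.3 (filterByExpr with a minimum count of 10 and a minimum total of 15, TMM factors, glmQLFit, glmQLFTest, Benjamini-Hochberg adjustment over 17096 genes, no block). Standard errors come from the ratio of each log2 fold change to the root of its F, and intervals use the fit's degrees of freedom. The 2-sided exact permutation test on 3 rats against 3 cannot go below p = 0.1 and was not used for calls. The edgeR and DESeq2 fits were tested on simulated counts. No simulated library was set apart from its group, so that test does not cover a rat such as SAH + PBS replicate 2. From each pathway list the 4 genes of smallest p were named, and Rel with its family. Patterns were compared among genes averaging 1 CPM or more, on log2(CPM + 0.01), and the share of genes 2-fold from their group used an offset of 0.5 CPM. Alternatives were DESeq2 1.42.0, limma-voom (limma 3.58.1) with and without quality weights, library totals, RLE factors, no filter, a filter at 1 CPM in every rat, log2(FPKM + 1) or log2(FPKM + 0.1) with limma (FPKM of at least 0.5 in 3 libraries), leaving out each rat, and a block for the replicate number.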

Additional observations from a re-analysis of the deposited data

How the results depend on the processing

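Of 159 member values under 16 alternatives, 151 kept their direction and their side of the threshold, and DESeq2 brought 4 past it. The sign turned in 4, Nfkbib (0.13), Nfkbie (0.11) and Tnfaip3 (0.29) without SAH + PBS replicate 2 and Tnfaip3 (0.052) with limma-voom and sample quality weights. With each rat left out in turn, Nfkbib ran from -0.48 to 0.13, Nfkbie from -0.75 to 0.11 and Tnfaip3 from -1.88 to 0.29. Bcl3 could not be tested at 1 CPM in every rat, since it lies below that in all SAH + 6-gingerol rats. Members called at an adjusted p under 0.05 numbered 0 in edgeR and limma and 4 in DESeq2. Members lower at an unadjusted p under 0.05 numbered 5 in the main fit and with RLE factors. They numbered 6 with library totals, DESeq2, quality weights and no filter. At 1 CPM in every rat and with log2(FPKM + 0.1) they numbered 4. They numbered 1 with limma-voom, 3 with log2(FPKM + 1), 2 with the replicate block, and 2 to 8 with a rat left out. The share of all genes was 8.71% in the main fit and 4.11% to 14.9% with a rat left out. For the other settings that share was not taken. Genes called numbered 3 in the main fit, with RLE factors and with no filter. They numbered 2 with library totals and 4 with limma-voom and with log2(FPKM + 1). The count was 700 in DESeq2, 147 with quality weights and 5 with log2(FPKM + 0.1). It was 0 at 1 CPM in every rat, 0 with the replicate block, and 0 to 91 with a rat left out. The subunit median ran from -1.82 to -0.60 and the inhibitor median from -1.96 to -0.32 with a rat left out, and the inhibitor median was -0.46 with quality weights. The inhibitor minus the subunit median, -0.12, changed sign with limma-voom (0.095), quality weights (0.39), 1 CPM in every rat (0.028), log2(FPKM + 1) (0.12), log2(FPKM + 0.1) (0.061) and the replicate block (0.12), and ran from -0.27 to 0.29 with a rat left out. Apart from the values without SAH + PBS replicate 2 and at 1 CPM in every rat, where rats or genes are missing, the cause was not tested. Scaling by library totals moved the median of all genes to -0.15 from -0.03. Rats with the same number did not deviate together (r of their deviations was -0.05, -0.0004 and -0.01). For rats of different number r ran from -0.02 to 0.04. No pairing by number was seen, but this check cannot exclude a shared batch. With 3 rats a group and 1 library apart from its group, p-values measure only the spread between these rats.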

Other observations

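Several targets of NF-kB, chemokines among them, were left untested because too few libraries reached the filter's minimum count. Some of them are given here as values chosen after they were seen. Ccl2, which attracts monocytes, had 0, 4 and 0 counts with 6-gingerol, against 423, 8160 and 4 counts with PBS. Ccl7, another monocyte chemokine, had 0, 0 and 8 counts with 6-gingerol, against 396, 2902 and 0 counts with PBS. Selp, the selectin of activated endothelium and platelets, had 0, 0 and 4 counts with 6-gingerol, against 36, 732 and 4 counts with PBS. Counts of these genes in SAH + PBS replicate 3 were thus as low as in the SAH + 6-gingerol rats, and SAH + PBS replicate 2 was highest in each.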
